A study of Mus musculus with 10 samples.

Results

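The clustered histone genes are the protein-coding mouse genes whose symbols place them in the clusters Hist1 to Hist4, and 67 of the 55536 genes in the deposited count files met that rule in GENCODE vM21. Of these, 54 lie in Hist1 on chromosome 13, 10 in Hist2 on chromosome 3, 2 in Hist3 on chromosome 11 and 1 in Hist4 on chromosome 6. By protein they are 6 genes of the linker histone H1, 18 of H2A, 18 of H2B, 12 of H3 and 13 of H4. The rule uses the symbol alone and no measured value, although the set was picked with earlier results of these data known.

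The study asked what loss of either of a pair of small leucine-rich proteoglycans, osteomodulin (OMD) and PRELP, does to the mouse bladder. RNA was sequenced from 4 wild-type (WT), 3 OMD-/- and 3 PRELP-/- libraries, all of C57BL/6 background. Both knockouts are constitutive, with β-galactosidase placed under each gene's own promoter in place of exons 2 and 3, so every cell of the animal lacks the gene. The records name bladder tissue, whereas the study speaks of isolated epithelia and of other group sizes. Age of these animals, and whether each library is 1 animal, are not given in the sources used here, so p-values measure the spread between these libraries.

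Most histone protein is made in S phase from clustered genes that have no introns and whose mRNAs carry no poly(A) tail. Their mRNAs end instead in a short stem-loop, which is bound by stem-loop binding protein (Slbp) and cut just downstream with the help of the U7 small nuclear ribonucleoprotein. Some of these genes also yield longer, polyadenylated transcripts, mainly described in differentiated or non-dividing cells. The libraries here were made from RNA captured on oligo(dT) beads, so a count reports the polyadenylated form, or whatever tail-less RNA escaped the selection, and not the total histone mRNA of the tissue.

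The stem-loop is shown for the 5 best-detected genes that had one, and for the pair just below the 1 CPM boundary used later, since it marks the tail-less end of histone mRNA. Each line runs 5′ to 3′ on the gene's strand, with the 16 bases of the stem-loop in capitals and up to 5 bases on each side.
Hist1h1c: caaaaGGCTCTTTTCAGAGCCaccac
Hist3h2a: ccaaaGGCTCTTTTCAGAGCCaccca
Hist1h2be: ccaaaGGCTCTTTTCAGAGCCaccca
Hist1h1e: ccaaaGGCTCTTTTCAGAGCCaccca
Hist1h4i: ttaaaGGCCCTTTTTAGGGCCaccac
Hist1h4h: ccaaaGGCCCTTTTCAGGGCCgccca
Hist2h3c2: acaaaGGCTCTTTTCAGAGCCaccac
On GRCm38 the capitals of Hist1h1c are chr13:23739512-23739527 on the plus strand, those of Hist3h2a chr11:58955172-58955187 (plus), of Hist1h2be chr13:23585531-23585546 (minus), and of Hist1h1e chr13:23621782-23621797 (minus). Those of Hist1h4i are chr13:22040966-22040981 (minus), of Hist1h4h chr13:23531458-23531473 (plus), and of Hist2h3c2 chr3:96238485-96238500 (minus). All 7 lie in the untranslated part after the stop codon, which they follow by 25 to 42 bases. The stem of both H4 genes differs from that of the other 5.

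A stem-loop of this kind (a paired stem of 6 bases starting with GG, and a loop of 4 bases) was found within 150 bases of the stop codon in 46 of the 54 genes with any annotated bases there. The same search found it in 105 of 18968 coding genes outside the clusters (0.554%). Its presence did not separate the levels, since 5 of the 7 genes with at least 1 CPM had it and so did 41 of the 60 others. Of those 60, 13 had no annotated bases after the stop codon to search. Among the genes with at least 1 CPM, Hist1h2bc and Hist2h2be had no match in their annotated transcripts. No match says only that these letters are not in that window of GENCODE vM21.

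The promoter of Hist1h1c, the gene that passed a test below, is shown as RefSeq gives it on GRCm38.p6, chr13:23738557-23738856, plus strand, from 250 bases before to 50 after the start site, with the CCAAT motif in capitals.
Hist1h1c promoter: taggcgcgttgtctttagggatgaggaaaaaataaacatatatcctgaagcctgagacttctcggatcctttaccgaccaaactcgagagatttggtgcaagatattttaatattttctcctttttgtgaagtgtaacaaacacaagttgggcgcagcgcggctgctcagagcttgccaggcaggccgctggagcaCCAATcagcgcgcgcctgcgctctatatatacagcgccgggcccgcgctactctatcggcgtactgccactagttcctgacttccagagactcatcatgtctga
Promoters were matched for 61 of the 67 genes and searched on both strands. CCAAT was present in 85.2% of them, against 37.4% of all 32851 promoters in the table, TATAAA in 57.4% against 13.6%, and ATTTGCAT, the octamer, in 21.3% against 1.74%. The octamer occurred in 7 of 17 H2A and 6 of 16 H2B promoters and in none of the 28 promoters of H1, H3 and H4 genes. CCAAT occurred in every matched H1, H2A, H2B and H3 promoter but in 3 of 12 H4 promoters. These matches describe the windows and were not related to any measured value.

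The libraries held 20391437 to 46269079 counts, and some stood apart from the rest of their group. WT 1 was the deepest, yet had 3536 genes with 1 to 10 counts where the other libraries had 5895 to 9353. PRELP-/- 1 differed most from its own group, with a chi-square per degree of freedom of 220 and 223 against the other PRELP-/- libraries, and its summed erythroid markers (473 CPM) lay above the 35.4 to 69.5 CPM of all others. PRELP-/- 2 and 3, and OMD-/- 2 and 3, were close pairs (3.57 and 3.1). The WT libraries also fell into pairs, WT 1 with WT 2 (11.6) and WT 3 with WT 4 (8.3), against 28.9 to 49.3 across these pairs. Smooth muscle markers summed to 280 and 263 CPM in WT 1 and 2 and to 1240 and 1080 CPM in WT 3 and 4. Y chromosome coding genes summed to 209 and 176 CPM in WT 1 and 2 and to 1.5 and 0.785 CPM in WT 3 and 4. They summed to 17.2, 0.927 and 0.903 CPM in OMD-/- 1 to 3 and to 97.9, 18.3 and 18.3 CPM in PRELP-/- 1 to 3. The libraries are thus not of 1 sex, and the mix differs between the groups. Umbrella-cell markers (uroplakins and Krt20) summed to 7780 to 19900 CPM in every library, and fibroblast markers to 6270 to 16300 CPM, so the libraries hold more than epithelium. Prelp fell from 267 ± 43.4 CPM (SD, n = 4) in WT to 2.72 ± 1.29 CPM (SD, n = 3) in PRELP-/-. Omd had 0 counts in all 3 OMD-/- libraries, but also 0 and 1 in WT 1 and 2, so it does not separate every library.

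In these poly(A)-selected libraries the clustered histone genes were a small signal carried by a handful of genes. All 67 together summed to 49.4 to 69.5 CPM (counts per 1000000 counts of the library, after TMM scaling), which is 1101 to 2623 counts per library. 7 genes had a mean of at least 1 CPM over the 10 libraries, and they held 13878 of the 14711 counts. 19 more exceeded 3 counts in some library without reaching that mean, 19 had 1 to 3 counts at most, and 22 had none in any library. In a library with 0 counts, a level of up to 0.0598 CPM (WT 1) to 0.17 CPM (PRELP-/- 1) is allowed by counting error alone. The boundary fell in a gap, between Hist1h4i at 1.05 CPM and Hist1h1e at 1.2 CPM just inside and Hist1h4h at 0.542 CPM and Hist2h3c2 at 0.344 CPM just outside.

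**Figure D1:**
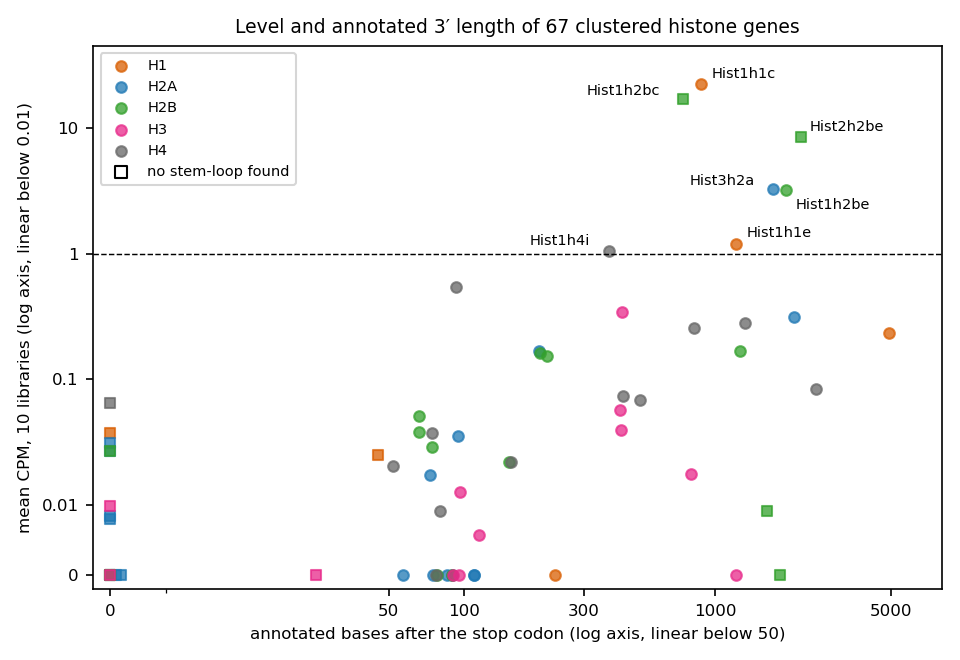
Mean CPM over the 10 libraries (log axis, linear below 0.01) against the annotated bases after the stop codon (log axis, linear below 50) for each of the 67 genes, coloured by histone class, with squares where no stem-loop was found. All 7 genes above the dashed line at 1 CPM had at least 376 annotated bases, while 22 genes sit at 0.

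By CPM, the well-detected genes were those with a long annotated stretch after the stop codon, but the reverse did not hold. All 7 genes above 1 CPM had 376 to 2192 annotated bases there, with a median of 1210, against a median of 89 among the 60 others. AATAAA, the usual polyadenylation hexamer, was present in 5 of the 7 and in 14 of the 60. Yet 15 of the 60 genes under 1 CPM also had more than 300 bases, and the longest stretch of any member, 4931 bases, belonged to Hist1h1d at 0.233 CPM (named after its values were seen). CPM is not scaled for length, so a longer stretch can collect more counts at the same RNA level. Part of this pattern can thus be built into the 1 CPM boundary. Per kb of exonic length, Hist1h4h, with 93 bases there, stood above Hist1h2be (1906 bases) and Hist1h1e (1209 bases). It stood below the rest of the 7. Annotated length rests partly on transcripts seen in other tissues, and its part in the levels was not tested.

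Genes that shared much of their sequence had low levels, but the reverse did not hold. Among the 30 genes with over 50% of their 50-base words shared with another gene, none reached 1 CPM, and the highest was at 0.344 CPM. The 7 genes above 1 CPM shared 0 to 30.6% of their words. Yet the 13 genes that shared at most 10% ranged from 0 to 22.3 CPM. The median of annotated bases after the stop codon was 73.5 in those 30 genes and 1210 in those 13. Sharing and annotated length thus cannot be told apart here. The 67 genes encode 30 distinct proteins, since all 13 H4 genes encode one, 9 H2A genes another, and 7 and 4 H3 genes 2 more. How the authors' counting treated reads that map to several genes is not given in the sources used here, so a low count in a gene of high identity is uncertain.

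The linker histone gene Hist1h1c carried the most reads. H1 proteins bind the DNA between nucleosomes, and Hist1h1c (ENSMUSG00000036181, chr13:23738808-23740367, plus strand, 1 exon) encodes the variant H1.2. Its level was 17.3, 17.8, 19.6 and 20.9 CPM in WT 1 to 4, 28.8, 24.4 and 25.8 CPM in OMD-/- 1 to 3, and 17.7, 26.2 and 24.7 CPM in PRELP-/- 1 to 3. Every OMD-/- library lay above every WT library, while PRELP-/- 1 lay among the WT libraries and PRELP-/- 2 and 3 among the OMD-/- libraries. It took 28.3% to 43.3% of all reads of the 67 genes. Hist1h1e (chr13:23620629-23622558, minus strand, 1 exon), which encodes H1.4, was at 0.498, 0.873, 1.42 and 1.19 CPM in WT 1 to 4, at 1.6, 2.16 and 1.51 CPM in OMD-/- 1 to 3, and at 0.568, 1.04 and 1.1 CPM in PRELP-/- 1 to 3. Its OMD-/- libraries lay above all others, on counts of 10 to 51 per library, but without TMM scaling WT 3 (1.55 per 1000000 raw counts) lay above OMD-/- 1 and 3 (1.5 and 1.49). Its exons overlap those of Hist1h2be on the same strand, so reads there cannot be told apart. The other 4 H1 genes had means over the 10 libraries of at most 0.233 CPM, and 1 of them had no count.

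Among H2A genes, whose product pairs with H2B in the nucleosome core, only Hist3h2a passed 1 CPM. Hist3h2a (ENSMUSG00000078851, chr11:58954685-58956830, plus strand, 1 exon) is 1 of the 2 genes of the Hist3 cluster, and overlaps exons of Trim17 on the same strand. It was at 3.41, 2.18, 2.88 and 4.78 CPM in WT 1 to 4, at 2.87, 3.77 and 2.65 CPM in OMD-/- and at 3.75, 3 and 3.08 CPM in PRELP-/- 1 to 3. The WT libraries spanned the full range of both knockouts. Of the other 17 H2A genes, 9 had no count in any library.

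H2B held 3 of the 7 well-detected genes. Hist1h2bc (ENSMUSG00000018102, chr13:23684199-23692908, plus strand) is annotated as a single spliced transcript of 2 exons. It was at 16.5, 14.9, 16.9 and 17.2 CPM in WT 1 to 4, at 19.2, 15.9 and 20.5 CPM in OMD-/- 1 to 3, and at 20.5, 14.3 and 14.3 CPM in PRELP-/- 1 to 3. Its groups overlapped, and 30.6% of its 50-base words occur in other genes. Hist2h2be (ENSMUSG00000068854, chr3:96221119-96223738, plus strand, 1 exon) shares none of its words with another gene and has 2192 annotated bases after the stop codon. It was at 7.17, 6.42, 6.42 and 7.7 CPM in WT 1 to 4, at 8.81, 8.98 and 8.63 CPM in OMD-/- 1 to 3, and at 11, 9.69 and 9.41 CPM in PRELP-/- 1 to 3. The 3 groups did not overlap, with WT lowest and PRELP-/- highest, but without TMM scaling WT 4 (8.53 per 1000000 raw counts) overlapped OMD-/- (8.26 to 8.94). Hist1h2be (ENSMUSG00000047246, chr13:23583670-23621124, minus strand), which encodes the same protein as Hist1h2bc, was at 3.73, 3.05, 2.48 and 3.01 CPM in WT 1 to 4, at 3.63, 4.15 and 2.6 CPM in OMD-/- 1 to 3, and at 1.99, 3.04 and 4.09 CPM in PRELP-/- 1 to 3. The lowest and nearly the highest of its 10 values were both PRELP-/- libraries.

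No H3 gene reached 1 CPM. The 12 H3 genes together had 5 to 19 counts in each of 9 libraries and 0 in WT 1, the deepest, where 3 counts would be 0.0598 CPM. Among H4 genes, only Hist1h4i (ENSMUSG00000060639, chr13:22040636-22041362, minus strand, 1 exon) passed the boundary. It was at 1.34, 0.873, 1.2 and 1.06 CPM in WT 1 to 4, at 0.989, 0.847 and 1.23 CPM in OMD-/- 1 to 3, and at 1.53, 0.601 and 0.872 CPM in PRELP-/- 1 to 3, with full overlap of the groups. Hist1h4h, its neighbour in level, ranged from 0.228 CPM in OMD-/- 3 to 0.942 CPM in OMD-/- 1, the lowest and the highest of its 10 values being in 1 group.

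**Figure D2:**
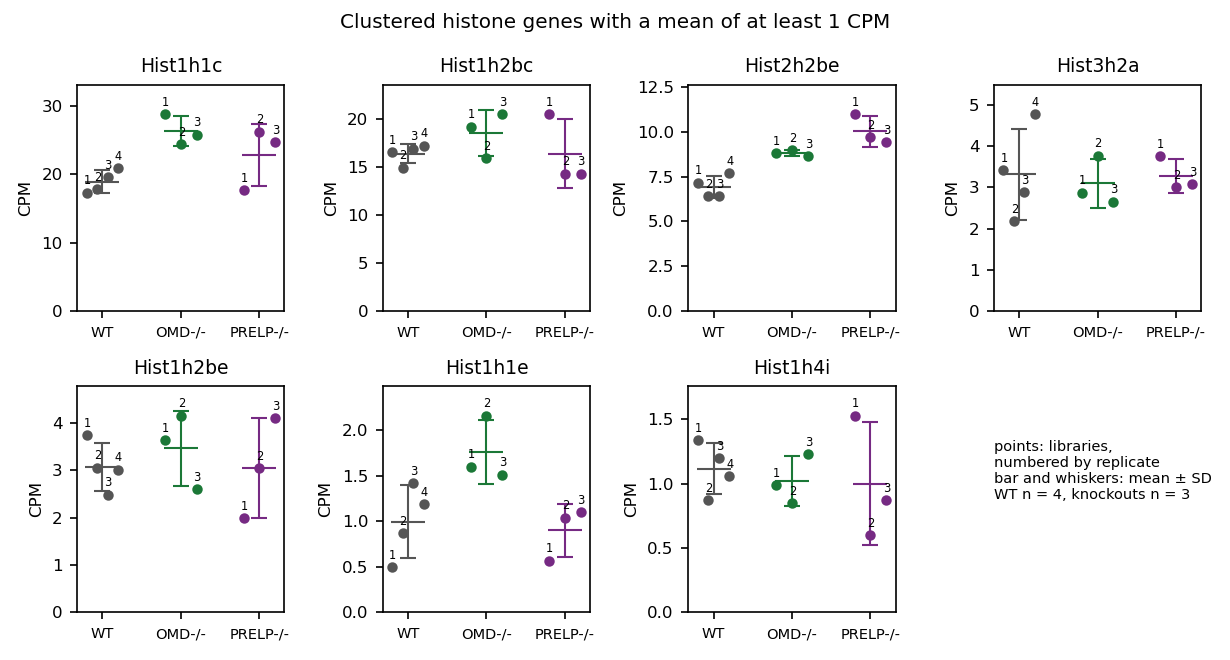
CPM in each library for the 7 genes with a mean of at least 1 CPM (vertical axis from 0), with the mean ± SD of each group. Hist1h1c in OMD-/- (24.4 to 28.8 CPM) sits above WT (17.3 to 20.9 CPM), and Hist2h2be is lowest in WT and highest in PRELP-/- with no overlap, though WT and OMD-/- overlap without TMM scaling.

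The share of low genes at 0 differed between libraries, and for histone genes it was taken in WT 1 alone. Of the 12 histone genes with a count in at least 7 of the 9 libraries other than WT 1 and a mean under 10 counts there, 7 were at 0 in WT 1 (58.3%). Of all 4548 genes chosen the same way, 26.9% were at 0 in WT 1, and 5.94% to 31.8% were at 0 when each other library took the place of WT 1, with PRELP-/- 1 the highest. Hist1h2bp (named after its values were seen) had the opposite pattern, with 11 counts in WT 1 and 0 in the other 9 libraries. Of the genes under 1 CPM, only Hist1h4h passed the filter on low counts and was compared between groups.

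The summed level was 49.4 to 59.4 CPM in WT, 63.6 to 69.5 CPM in OMD-/- and 60.5 to 62.5 CPM in PRELP-/-. These ranges do not overlap between WT and either knockout, but without TMM scaling they do, at 53 to 65.9 per 1000000 raw counts in WT, 63.2 to 65.7 in OMD-/- and 51 to 59.4 in PRELP-/-. No test was made on the sum. H1 genes gave 18 to 22.6 CPM in WT, 27 to 30.7 CPM in OMD-/- and 18.6 to 27.5 CPM in PRELP-/-, nearly all of it Hist1h1c. H2B genes gave 24.7 to 29 CPM, 29.4 to 33 CPM and 27.3 to 34.7 CPM in the same order, and H4 genes 1.56 to 3.63 CPM over all 10 libraries.

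**Figure D3:**
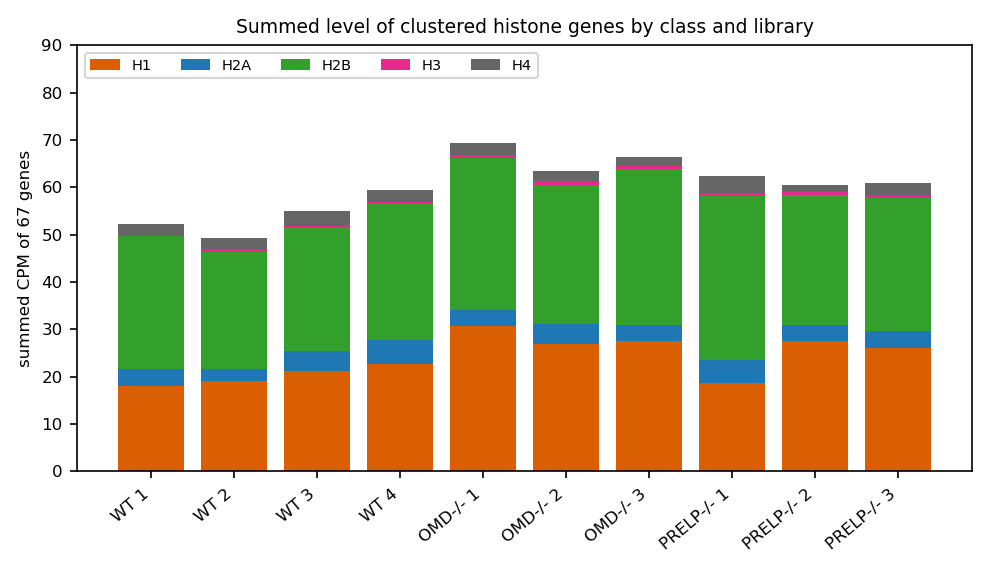
Summed CPM of the 67 genes in each library (bars from 0), stacked by histone class. H1 and H2B fill most of every bar, and the bars stand at 49.4 to 59.4 CPM in WT and at 60.5 to 69.5 CPM in the knockouts.

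For OMD-/- against WT, the comparison asks which genes respond to loss of OMD. Of the 8 clustered histone genes with enough counts to be tested, 1 was called, Hist1h1c, where 29.4% of all 16647 genes tested were called and 14.3% were called higher. Hist1h1c rose from 18.9 ± 1.67 CPM (SD, n = 4) to 26.4 ± 2.25 CPM (SD, n = 3), a log2 fold change of 0.48 (SE 0.11, 1.39-fold), with a Benjamini-Hochberg adjusted p of 0.00748 in the edgeR fit (quasi-likelihood test). With 8 genes tested, 1 call is too few to set their share apart from those of all genes. An unadjusted p under 0.05 was reached by 3 of the 8 in that fit, where 41.3% of all genes reached it. The 59 others were left out by the filter on low counts. Hist2h2be had a log2 fold change of 0.34 (SE 0.14, edgeR adjusted p = 0.0823) and Hist1h1e one of 0.85 (SE 0.38, edgeR adjusted p = 0.113), and neither passed. The remaining 5 lay between -0.23 and 0.18. The groups did not overlap, with OMD-/- higher, in 3 of the 8 with TMM scaling, and in 19.2% of all genes tested. The median of the 8 was 0.17, and that of all genes 0.

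The call of Hist1h1c held when any 1 of the 7 libraries was left out (log2 fold change 0.42 to 0.53, edgeR adjusted p 0.0061 to 0.0309). It did not hold when all 10 libraries were fitted together (0.48, edgeR adjusted p = 0.0564) or when close libraries were summed (0.53, edgeR adjusted p = 0.0671). That sum merged WT 1 with WT 2 and WT 3 with WT 4, besides OMD-/- 2 with OMD-/- 3. On total counts without TMM, which moves the median of all genes by -0.16 and the calls from 2377 higher and 2522 lower to 1256 and 4283, Hist1h1c was at 0.31 (edgeR adjusted p = 0.0431). With Y chromosome expression as a covariate, coded only as above 10 CPM or not, Hist1h1c was at 0.47 (edgeR adjusted p = 0.00755).

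Other values moved between the same libraries. Of all genes tested in OMD-/- against WT, 14.3% were called higher and 29.4% were called in either direction. Of 7 leukocyte markers, 5 rose in OMD-/-. All 7 summed to 202, 442 and 452 CPM in OMD-/- 1 to 3 and to 213 to 287 CPM in WT. Of 5 fibroblast markers 3 rose, all 5 summing to 13400 to 16300 CPM against 6270 to 7070 CPM, as did 2 of 6 umbrella-cell and 1 of 3 tested basal markers, and no smooth muscle or erythroid marker was called. All 7 nuclear-retained RNAs tested fell (Neat1, Malat1, Firre, Meg3, Kcnq1ot1, Mirg and Rian), from 1500 to 1780 summed CPM in WT to 320 to 384 CPM. Their part in the result for Hist1h1c was not tested. In bulk libraries, fewer cells of a type and less RNA per cell cannot be told apart.

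For PRELP-/- against WT, 0 of the 8 tested genes were called by edgeR, where 7.29% of all 16581 genes were. An unadjusted p under 0.05 was reached by 1 of the 8, where 26.7% of all genes reached it. With PRELP-/- 1 kept, DESeq2 called 1 of the 8 (17.6% of all genes), limma-voom 2 (42% of all genes) and the fit of all 10 libraries 1 (14.7% of all genes). Hist2h2be came nearest, at 10 ± 0.855 CPM (SD, n = 3) against 6.93 ± 0.627 CPM (SD, n = 4), a log2 fold change of 0.51 (SE 0.15, edgeR adjusted p = 0.0806). It was the only one of the 8 whose groups did not overlap, with PRELP-/- higher in 3 of 3 libraries, as in 13.6% of all genes. Hist1h1c was at 22.9 ± 4.53 CPM (SD, n = 3), a log2 fold change of 0.26 (SE 0.17, edgeR adjusted p = 0.363). The other 6 lay between -0.21 and 0.13, and the median of the 8 was -0.03 beside 0.02 for all genes.

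The count changed without PRELP-/- 1. Then 2 of 9 tested genes were called, Hist1h1c (0.44, edgeR adjusted p = 0.0255) and Hist2h2be (0.47, edgeR adjusted p = 0.0469), where 22.2% of all genes were. Without both WT 1 and PRELP-/- 1, Hist1h1c alone of 9 was called (0.39, edgeR adjusted p = 0.0376), where 23.6% of all genes were. In PRELP-/- 1 umbrella-cell markers summed to 19900 CPM, against 11700 and 11300 CPM in PRELP-/- 2 and 3 and 7780 to 9500 CPM in WT. Fibroblast markers were at 8290 CPM there and at 15200 and 14800 CPM in the other pair. With all libraries kept, 1 of 6 umbrella-cell and 2 of 5 fibroblast markers were called higher, where 232 of all 16581 genes were. None of the basal, smooth muscle, leukocyte or erythroid markers was called. The part of the markers in the histone values was not tested.

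For PRELP-/- against OMD-/-, 0 of the 8 were called by edgeR, where 1 of 15805 genes was (Prelp itself, 0.00633%). With the replicate number as a block, still 0 were called, where 43 genes (0.272%) were. DESeq2 and limma-voom also called 0, where 0.342% and 6.39% of all genes were called. An unadjusted p under 0.05 was reached by 1 of the 8 in the edgeR fit, where 4.51% of all genes reached it. Hist1h1e was at 0.903 ± 0.292 CPM (SD, n = 3) in PRELP-/- and 1.76 ± 0.354 CPM (SD, n = 3) in OMD-/-, a log2 fold change of -0.94 (SE 0.34, edgeR adjusted p = 0.69), without overlap. Hist2h2be was at 0.18 (SE 0.14, edgeR adjusted p = 0.69), also without overlap. Groups did not overlap in 8.72% of all genes with PRELP-/- lower and in 6.38% with it higher. Hist1h1c, called against WT in 1 knockout and not in the other, had a log2 fold change of -0.21 (SE 0.19, edgeR adjusted p = 0.695) between them. Both knockout comparisons share the 4 WT libraries.

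**Figure D4:**
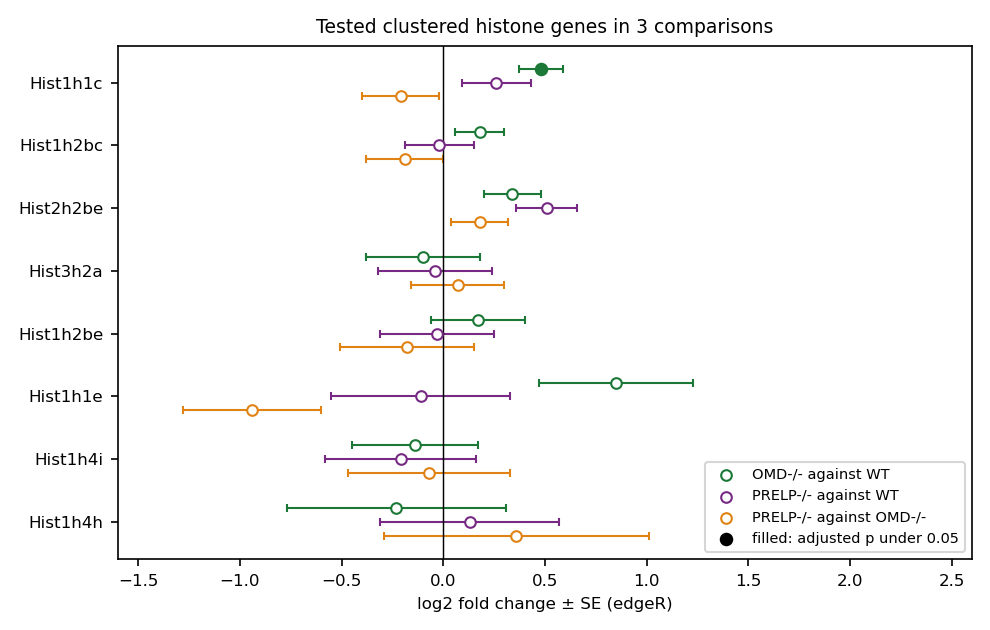
Log2 fold change ± SE (edgeR) of the 8 tested clustered histone genes in each of the 3 comparisons, filled where the adjusted p was under 0.05. The only filled point is Hist1h1c in OMD-/- against WT at 0.48, and the widest error bars belong to the lowest genes.

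Histone genes outside the clusters, most of which give spliced or polyadenylated mRNAs, were read far more deeply. The 11 examined summed to 843 to 1340 CPM per library. Per kb of exonic length, H3f3b, which encodes the replacement histone H3.3, was at 140 CPM per kb and H1f0, a linker histone of non-dividing cells, at 48.3. H3f3a, the other H3.3 gene, was at 36.6 CPM per kb, H2afj at 34.5, H2afv at 27.3, H2afz at 24.7 and H2afy, a macroH2A gene, at 20.4. H2afx was at 8.46 CPM per kb, H2afy2 at 5.73, H1fx at 2.14 and Cenpa, the centromeric H3, at 0.445. On that scale Hist1h2bc at 14.7 and Hist1h1c at 14.3 CPM per kb stood between H2afy and H2afx, and the other well-detected clustered genes were at 0.62 to 3.22. Of the 11, H2afy2 (log2 fold change 0.4, edgeR adjusted p = 0.0302) and H1f0 (0.29, edgeR adjusted p = 0.0189) rose in OMD-/- against WT. Without OMD-/- 2 or without OMD-/- 3 neither was called, where 18.2% and 17.2% of all genes were. Without OMD-/- 1, WT 1, WT 3 or WT 4 only 1 was, where 23.1% to 29.5% of all genes were. Of all genes, 29.4% were called in that comparison and 14.3% were called higher. None of the 11 was called in PRELP-/- against WT, where 7.29% of all genes were. The median of the 11 log2 fold changes was 0.1 in OMD-/- against WT, beside 0 for all genes. In PRELP-/- against WT it was 0.34 beside 0.02, and 0.12 without PRELP-/- 1.

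**Figure D5:**
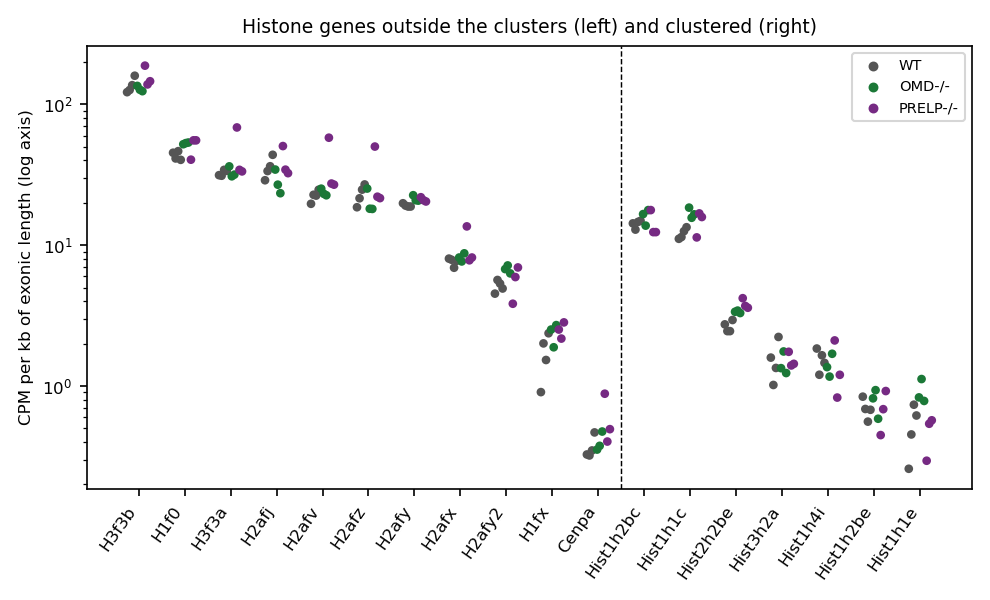
CPM per kb of exonic length (log axis) in each of the 10 libraries, coloured by group, for 11 histone genes outside the clusters (left of the dashed line) and the 7 clustered ones above 1 CPM (right). H3f3b tops the plot with a mean of 140 CPM per kb, and the highest clustered genes lie near 14.

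Of 17 genes that process or degrade histone mRNA, 16 were tested. In OMD-/- against WT 3 were called, where 29.4% of all genes were. Of these 2 rose, Cpsf3 (0.36, edgeR adjusted p = 0.00975), which encodes the endonuclease that cuts the pre-mRNA, and Cpsf1 (0.24, edgeR adjusted p = 0.0445). Casp8ap2, which encodes FLASH, a partner of Lsm11 in histone pre-mRNA processing, fell (-0.41, edgeR adjusted p = 0.0142). The count was 1 without OMD-/- 2 or without OMD-/- 3, where 18.2% and 17.2% of all genes were called. None was called in PRELP-/- against WT, where 7.29% of all genes were. The list's medians were -0.02 and -0.04. Slbp itself was at 17 CPM in WT, 16.8 CPM in OMD-/- and 15.6 CPM in PRELP-/-.

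S phase is when clustered histone genes are mainly transcribed. Of 23 tested genes of S phase and division, 10 rose in OMD-/- against WT and none fell. Of all genes tested, 14.3% were called higher and 29.4% were called in either direction. The median log2 fold change of the 23 was 0.43, beside 0 for all genes. The 10 were the helicase subunits Mcm2, Mcm3, Mcm4, Mcm5 and Mcm6, the ribonucleotide reductase subunit Rrm1, and Mki67, Top2a, Ccna2 and Cdk1. Mki67, a marker of cycling cells, had a log2 fold change of 1.5 (edgeR adjusted p = 0.00547) and Mcm3 one of 1 (edgeR adjusted p = 0.00092). Mki67 was at 4.71, 11.4 and 13.1 CPM in OMD-/- 1 to 3 and at 2.92 to 4.25 CPM in WT, and Top2a at 5.27, 11.9 and 12.1 CPM in OMD-/- 1 to 3. The leukocyte markers given above were likewise highest in OMD-/- 2 and 3, and their part in these values was not tested. The count fell to 5 without OMD-/- 2 or without OMD-/- 3, where 18.2% and 17.2% of all genes were called. None was called in PRELP-/- against WT, where the median was 0.23 beside 0.02 for all genes. Without PRELP-/- 1, 5 were called, where 22.2% of all genes were.

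RNAs made without a poly(A) tail served as a check of the selection. Of 16 such RNAs, 2 were tested in OMD-/- against WT and 3 in PRELP-/- against WT. Rn7sk, the most abundant on the list, fell in both (-1.16, edgeR adjusted p = 0.00165, and -1.26, edgeR adjusted p = 0.047), and 5 had no count in any library. The call in PRELP-/- was lost without any 1 of the WT libraries and without PRELP-/- 2 or 3. The list summed to 9.69 to 13.6 CPM in WT, 6.17 to 7.41 CPM in OMD-/- and 4.59 to 12.9 CPM in PRELP-/-. Per kb of exonic length, Scarna17 was at 29.4 CPM and Rn7sk at 18, above Hist1h2bc at 14.7 and Hist1h1c at 14.3. The rest of the list was at 1.17 CPM per kb or less. The selection thus did not remove all reads at genes of tail-less RNAs. In PRELP-/- against WT, 6 of the 7 nuclear-retained RNAs fell, where 7.29% of all genes were called in either direction. No gene of any of these lists or marker lists was called between the knockouts.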

How the data were processed

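RNA of mouse bladder was measured in 10 poly(A)-selected, strand-specific libraries whose adaptors carry molecular identifiers. The authors deposited raw read counts per gene (featureCounts, 1 integer per gene and library, not normalised). The column headers name HISAT2, while the submitters' processing notes list STAR 2.5.2b. Builds named there are GRCm38 and hg38, and strand setting, treatment of reads with several hits and use of the identifiers are not given in the sources used here. Tables of the authors' own DESeq2 comparisons (mean level, log2 fold change, p-values) were not used.

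All 55536 identifiers matched GENCODE vM21. Of 70 clustered histone entries, 3 pseudogenes were left out. The members and gene lists were chosen with earlier results of these data known. Levels are CPM with TMM scaling over all 10 libraries. Each comparison was fitted on its 2 groups with R 4.3.3 and edgeR 4.0.16 (filterByExpr, TMM, robust quasi-likelihood test, two-sided, Benjamini-Hochberg over all tested genes, threshold 0.05). The fits were tested on simulated data. Genes were named where the mean was at least 1 CPM or a call was made, with 2 more on each side of that level. Lists covered histone processing and decay, histone genes outside the clusters, S phase and division, tail-less and nuclear-retained RNAs, and markers of 6 cell types. Alternatives used DESeq2 1.42.0 and limma 3.58.1, other scalings and filters, and left-out libraries. Stem-loops, AATAAA and shared 50-base words were read from GENCODE transcripts, and promoters from RefSeq. Counts at or under 3 in every library were taken as undetected, and floors cover counting error only. Deviations of same-numbered libraries correlated at 0.24 to 0.39 across genes between PRELP-/- and OMD-/-. For OMD-/- with WT the values were -0.044 to 0.0081, and for PRELP-/- with WT -0.15 to 0.19. In both knockouts replicate 1 stood apart from replicates 2 and 3, so these correlations cannot show whether same-numbered libraries are pairs. The main fits took no pairs. The replicate number, which comes from the labels, was a block only in an alternative fit.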

Additional observations from a re-analysis of the deposited data

How the results depend on the processing

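The number of clustered histone genes with a mean of at least 1 CPM stayed within 1.5 times its value under every threshold, scaling and left-out library tried. The number called in OMD-/- against WT was 2 with limma-voom, 0 with all 10 libraries in 1 fit and 0 with close libraries summed, against 1. The shares of all genes called, in that order, were 43.3%, 14.7% and 9.06%, against 29.4%. In PRELP-/- against WT the number was 1 with DESeq2, 2 with limma-voom, 1 with all 10 libraries in 1 fit, 1 without both WT 1 and PRELP-/- 1, and 0 to 2 when libraries were left out, against 0. The shares of all genes there were 17.6%, 42%, 14.7%, 23.6% and 2.77% to 22.2%, against 7.29%. No alternative gave a call between the knockouts, where 0% to 6.39% of all genes were called. Summing close libraries and leaving out that pair were chosen after seeing the data. With the replicate number as a block, counts of called genes stayed at 1, 0 and 0, and the block changed no call of a histone gene. Over all genes it gave 3516, 115 and 43 calls, against 4899, 1209 and 1. Directions that turned were all of log2 fold changes without a call. In OMD-/- against WT, Hist3h2a was at 0.13 with the block and -0.26 to 0.12 with a library left out, and Hist1h4h at 0 with close libraries summed and -1.15 to 0.11. In PRELP-/- against WT, Hist3h2a was at 0.2 with the block, 0.18 with the Y chromosome covariate and -0.19 to 0.17 with a library left out. Hist1h2bc was at 0.03 with the covariate, 0.04 with close libraries summed and -0.18 to 0.07. Hist1h2be was at 0.23 with limma-voom, 0.32 without WT 1 and PRELP-/- 1, and -0.3 to 0.22. Hist1h1e was at 0.02 with limma-voom, 0.44 with the covariate and -0.36 to 0.15, and Hist1h4i at -0.6 to 0.06. Hist1h4h was at -0.11 on total counts, -0.12 with limma-voom, -0.04 with the block, -0.15 with the covariate and -0.06 to 0.46. Between the knockouts, Hist1h1c was at 0 with limma-voom, Hist3h2a at -0.02 on total counts, -0.04 with limma-voom and -0.03 to 0.23, and Hist1h2be at 0.06 with limma-voom and -0.46 to 0.04. Hist1h4i was at 0.09 with close libraries summed and -0.48 to 0.2, and Hist1h4h at -0.63 with the covariate. The causes were not tested. On total counts the median of all genes moved by -0.16 in OMD-/- and -0.23 in PRELP-/-, where calls went from 232 higher and 977 lower to 55 and 1717. Of the 59 genes that were not tested, 41 had 3 counts or fewer in every library.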
